A study of Mus musculus with 6 samples.

Results

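A group of 10 genes of the response to low oxygen and of glycolysis was followed across arrays of Olig2 knockout and wild-type mouse forebrain: Vegfa, Egln3, Bnip3, Pdk1, Hk2, Pfkp, Aldoa, Pgk1, Ldha and Ddit4. Their probe sets were taken as every non-control probe set of the array whose annotation gives exactly 1 gene symbol and whose symbol is one of these 10. This gave 23 of 45037 non-control probe sets, and 10 of the 18193 genes with such a probe set. Of the 23 probe sets, 19 passed the filter on low values (above the array's own median on at least 3 of 6 arrays), and they measured 9 of the 10 genes. Both probe sets of Egln3 missed the filter, as did 1 each of Pdk1 and Pfkp. No probe set listed a member beside another gene.

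The arrays are Affymetrix MOE430 2.0 oligonucleotide arrays of E13.5 mouse brain (E stands for embryonic day), and the values are deposited log2 expression values. The knockout group (Olig2-/-) is replicates 2, 4 and 5, and the wild-type group (Olig2+/+) is replicates 1, 4 and 5, each array holding pooled RNA of 3 brains. The series text states 5 replicates per genotype, and the arrays not named here were not analysed. The tissue is called ventral forebrain in the series text and ventral telencephalon in the sample labels. How the Olig2 allele was made, the strain, the sex and the litters are not stated in the labels or series text, and RNA of each array comes from a pool of whole pieces of tissue, not of sorted cells.

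In normal oxygen, prolyl hydroxylases of the Egln family mark the alpha subunits of hypoxia-inducible factor (HIF) for destruction through the Vhl protein. When oxygen is scarce the alpha subunits persist, pair with Arnt and bind short DNA elements with the core ACGTG or GCGTG. Their targets include most glycolytic enzymes, the angiogenic ligand Vegfa, and factors that lower mitochondrial oxygen use. Embryonic neural progenitors are known to rely on glycolysis, and vessels that invade the forebrain wall change its oxygen supply.

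The elements named above can be read directly in the members' promoters. RefSeq (GRCm38.p6) gave 15 windows of 300 bases for the 10 members, each holding 250 bases before and 50 after an annotated start. ACGTG and GCGTG were searched on both strands, so that CACGTG counts as 2 overlapping matches. At least 1 match lay in 12 of the 15 windows (80.0%), against 43.8% of all 32851 windows. Each of the 10 members had a match in at least 1 window. That count is per gene, and a gene with several windows has more chances of a match. No share of all genes was computed to set beside it. The members were named as genes of the low-oxygen response and glycolysis, so their higher share is a description and no test. Windows of 1 gene can overlap, as 2 of Aldoa do (upstream bases chr7:126799179-126799428 and chr7:126799255-126799504), so the windows are not independent. A match is only a run of letters, and binding was not measured. The 3 windows with most matches are printed below, upstream bases only, 5′ to 3′ on the gene's strand, to show what these promoters hold; capitals mark the matches on either strand. The Ldha window (chr7:46845554-46845803, + strand) held 7 matches, 5 of them upstream, and 0.301% of all windows held at least 7. The Bnip3 window (chr7:138909507-138909756, - strand) held 5, all upstream, and 1.66% of all windows held at least 5. The Pfkp window (chr13:6648772-6649021, - strand) held 4, of which 3 were upstream and none was ACGTG. At least 4 matches were in 3.86% of all windows.
Ldha: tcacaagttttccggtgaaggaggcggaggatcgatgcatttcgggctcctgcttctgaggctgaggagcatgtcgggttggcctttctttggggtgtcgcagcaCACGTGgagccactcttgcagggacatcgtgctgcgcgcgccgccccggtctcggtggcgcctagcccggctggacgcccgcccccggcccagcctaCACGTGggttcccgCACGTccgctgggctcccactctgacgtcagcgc
Bnip3: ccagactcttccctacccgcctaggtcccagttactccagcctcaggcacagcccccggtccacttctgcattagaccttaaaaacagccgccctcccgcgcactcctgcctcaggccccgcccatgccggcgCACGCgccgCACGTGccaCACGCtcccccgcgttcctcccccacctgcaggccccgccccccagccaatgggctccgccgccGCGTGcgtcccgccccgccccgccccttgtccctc
Pfkp: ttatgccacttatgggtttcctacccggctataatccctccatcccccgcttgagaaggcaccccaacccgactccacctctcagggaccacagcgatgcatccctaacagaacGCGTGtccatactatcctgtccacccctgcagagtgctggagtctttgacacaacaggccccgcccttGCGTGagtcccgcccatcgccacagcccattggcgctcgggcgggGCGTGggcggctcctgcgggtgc

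Among the 9 measured members, arrays of 1 genotype often differed by more than the genotypes did. In all, 6 members stood at least 0.5 higher on the log2 scale (1.41-fold) on knockout replicate 4 than on the mean of the other 2 knockout arrays, against 1.97% of all genes. Wild-type replicate 1 was the lowest of the 6 arrays for 5 members, against 27.0% of all genes. No member passed the genotype test, and 0.0% of all genes did. A bulk value cannot separate fewer cells of a type from less RNA per cell. Each log2 value belongs to its own probe set, so levels of different genes on this scale are not ranked.

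**Figure D1:**
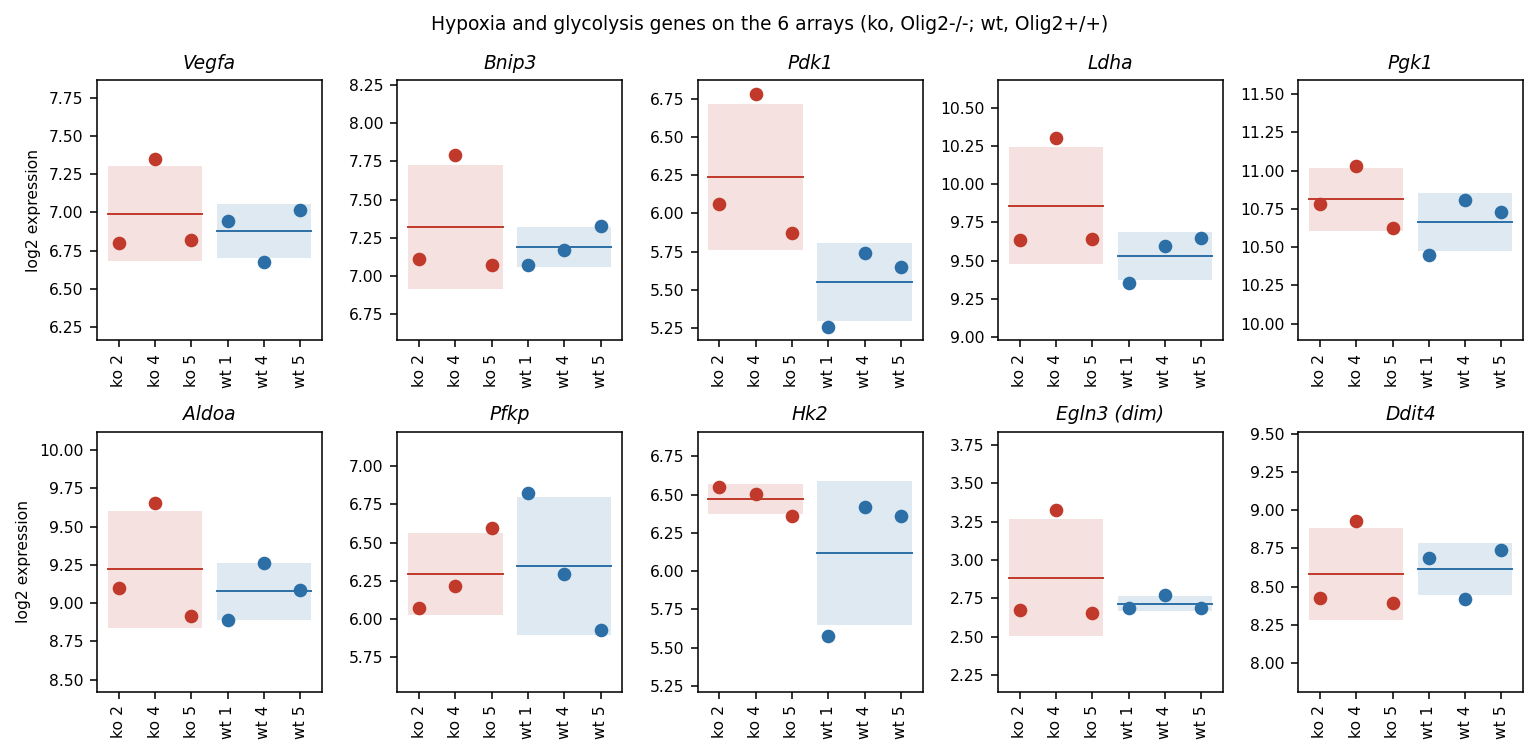
Log2 expression (y axis, a span of 1.7 log2 units in each panel) of the 10 genes by array (x axis), knockout left of wild type. Points are single arrays, and lines with bands are the mean and SD of each genotype (n = 3 each). Knockout replicate 4 is the highest point for 7 of the 9 measured genes, and Egln3 is shown although its probe sets missed the filter.

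Vegfa encodes the main secreted growth factor for blood vessels. Its values were 6.80, 7.35 and 6.82 in knockout replicates 2, 4 and 5, against 6.94, 6.68 and 7.01 in wild-type replicates 1, 4 and 5. The groups overlapped, and the knockout SD came from replicate 4, which lay 0.54 above the mean of its 2 replicates (1.45-fold). The means were 6.99 ± 0.31 in the knockout against 6.88 ± 0.18 in the wild type (SD, n = 3 each), a difference of 0.11 with a standard error of 0.18 and a 95% interval of -0.33 to 0.56 (limma, adjusted p = 0.792). Without knockout replicate 4 the difference was -0.07. The second Vegfa probe set also read highest on knockout replicate 4, with 4.26, 4.67 and 4.26 in the knockout against 3.93, 4.14 and 4.26 in the wild type. Its difference was 0.29 and did not reverse. It was 0.16 without knockout replicate 4, and 0.06 without that array and wild-type replicate 1.

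Egln3 encodes an oxygen-dependent prolyl hydroxylase that is itself a HIF target. Its brighter probe set read 2.67, 3.33 and 2.65 in knockout replicates 2, 4 and 5, against 2.69, 2.77 and 2.69 in wild-type replicates 1, 4 and 5. The lowest value of the table is 2.27. Of the 6 arrays, 5 lay between 2.65 and 2.77, and knockout replicate 4 was 0.66 above the mean of its replicates. The other probe set read 2.59, 2.94 and 2.59 in the knockout, against 2.55, 2.68 and 2.59 in the wild type. Both probe sets were thus highest on the same array, but neither was tested with the filter on.

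Bnip3 encodes a mitochondrial outer membrane protein that directs mitochondria to autophagy. Its values were 7.11, 7.79 and 7.07 in knockout replicates 2, 4 and 5, against 7.07, 7.17 and 7.33 in wild-type replicates 1, 4 and 5. Only knockout replicate 4 stood apart, 0.70 above its replicates (1.63-fold), and the other 5 arrays lay between 7.07 and 7.33. The difference of the means was 0.13 with a standard error of 0.21 and a 95% interval of -0.39 to 0.65 (limma, adjusted p = 0.793), and it was -0.10 without knockout replicate 4.

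Pdk1 encodes a kinase that switches off pyruvate dehydrogenase and so keeps pyruvate out of mitochondria. It was the member with the largest genotype difference. Its values were 6.06, 6.78 and 5.87 in knockout replicates 2, 4 and 5, against 5.26, 5.74 and 5.65 in wild-type replicates 1, 4 and 5. The groups did not overlap, and each end of the range was a single array, knockout replicate 4 at the top and wild-type replicate 1 at the bottom. The means were 6.24 ± 0.48 in the knockout against 5.55 ± 0.26 in the wild type (SD, n = 3 each), a difference of 0.69 (1.61-fold) with a 95% interval of 0.03 to 1.34. The unadjusted limma p was 0.0423, and the p adjusted over all kept probe sets was 0.511, so the difference did not pass. Without knockout replicate 4 it was 0.42, and without that array and wild-type replicate 1 it was 0.27. The deviation of knockout replicate 4 from its replicates, 0.81 (1.76-fold), exceeded the genotype difference. The other kept probe sets of Pdk1 differed by 0.34 and 0.20 between genotypes, with overlap of the groups, and deviated by 0.71 and 0.93 on knockout replicate 4. Their differences were 0.11 and -0.11 without knockout replicate 4. Without that array and wild-type replicate 1 they were -0.11 and -0.16.

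The glycolytic members follow in pathway order. Hk2, a hexokinase that traps glucose in the cell, read 6.55, 6.50 and 6.36 in knockout replicates 2, 4 and 5, against 5.57, 6.42 and 6.36 in wild-type replicates 1, 4 and 5. Here the array that stood apart was wild-type replicate 1, 0.81 below the mean of its replicates, and knockout replicate 4 lay within the other arrays. The genotype difference of 0.35 had a standard error of 0.24 and a 95% interval of -0.23 to 0.94 (limma, adjusted p = 0.562), and without wild-type replicate 1 it was 0.08.

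Pfkp encodes the platelet form of phosphofructokinase, the committed step of glycolysis. It read 6.07, 6.21 and 6.59 in knockout replicates 2, 4 and 5, against 6.82, 6.29 and 5.93 in wild-type replicates 1, 4 and 5. Both the highest and the lowest array were wild type, and the groups overlapped fully. The difference was -0.05 with a standard error of 0.26 and a 95% interval of -0.69 to 0.58 (limma, adjusted p = 0.940). Its second kept probe set read 5.19, 5.06 and 5.71 in the knockout, against 5.80, 5.31 and 4.85 in the wild type, with the same highest and lowest array. Pfkp was the only measured member that read below its replicates on knockout replicate 4, with a deviation of -0.12.

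Aldoa encodes aldolase A, which splits fructose bisphosphate. Its values were 9.10, 9.65 and 8.92 in knockout replicates 2, 4 and 5, against 8.89, 9.26 and 9.08 in wild-type replicates 1, 4 and 5. Knockout replicate 4 was again the highest array, 1.56-fold above its replicates. The genotype difference was 0.14 with a standard error of 0.21 (limma, adjusted p = 0.775), and -0.07 without that array. All 5 Aldoa probe sets are of the type whose probes may match other transcripts, so they may share sequence. Their genotype differences ran from 0.12 to 0.24 and their deviations on knockout replicate 4 from 0.47 to 0.99, and all 5 read highest on that array. Without it the other probe sets differed by 0.04, -0.06, -0.21 and -0.03.

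Pgk1 encodes phosphoglycerate kinase, which makes the first ATP of the pathway. It read 10.78, 11.03 and 10.63 in knockout replicates 2, 4 and 5, against 10.45, 10.81 and 10.73 in wild-type replicates 1, 4 and 5. Knockout replicate 4 was highest by a smaller step, 0.33 (1.26-fold), and wild-type replicate 1 was lowest. The difference of 0.15 had a standard error of 0.15 (limma, adjusted p = 0.665) and was 0.04 without either of these arrays in turn. The other 2 Pgk1 probe sets differed by 0.33 and 0.25 between genotypes, and by 0.23 and 0.13 without knockout replicate 4. Without both arrays they differed by 0.06 and -0.02.

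Ldha encodes the lactate dehydrogenase subunit that turns pyruvate into lactate. Its values were 9.63, 10.30 and 9.64 in knockout replicates 2, 4 and 5, against 9.35, 9.59 and 9.65 in wild-type replicates 1, 4 and 5. Knockout replicate 4 lay 0.67 above its replicates (1.59-fold), and the other 5 arrays lay between 9.35 and 9.65. The means were 9.86 ± 0.38 in the knockout against 9.53 ± 0.16 in the wild type (SD, n = 3 each), a difference of 0.33 with a 95% interval of -0.18 to 0.84 (limma, adjusted p = 0.552). Leaving out knockout replicate 4 brought it to 0.11, and leaving out wild-type replicate 1 as well brought it to 0.02.

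Ddit4 (Redd1) encodes an inhibitor of mTOR signalling that responds to hypoxia and to other stresses. It read 8.43, 8.93 and 8.40 in knockout replicates 2, 4 and 5, against 8.68, 8.42 and 8.74 in wild-type replicates 1, 4 and 5. Knockout replicate 4 was the highest array, by 0.52 over its replicates (1.43-fold), while the other knockout arrays were level with the lowest wild-type array. The difference was -0.03 with a 95% interval of -0.46 to 0.40 (limma, adjusted p = 0.953), and without knockout replicate 4 it was -0.20.

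The counts were then set against those over all 10630 measured genes. None of the 9 passed an adjusted p of 0.05, and 0.0% of all genes did, with a lowest adjusted p of 0.511; 840 genes were under 0.05 unadjusted. Pdk1 alone was higher in the knockout at an unadjusted p under 0.05, against 3.99% of all genes. It was also the only one higher without overlap of the groups, against 8.45% of all genes, though its other kept probe sets overlapped. None was lower without overlap, against 7.96% of all genes. The knockout mean was above the wild-type mean in 7 of 9 members, against 49.3% of all genes, and the exceptions were Pfkp and Ddit4. The median difference over the members was 0.14, against -0.0015 over all genes. Without knockout replicate 4 the members' median was -0.01, with 4 of 9 higher. It was 0.08 without wild-type replicate 1, with 9 of 9 higher, and -0.03 without both arrays, with 4 of 9 higher.

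**Figure D2:**
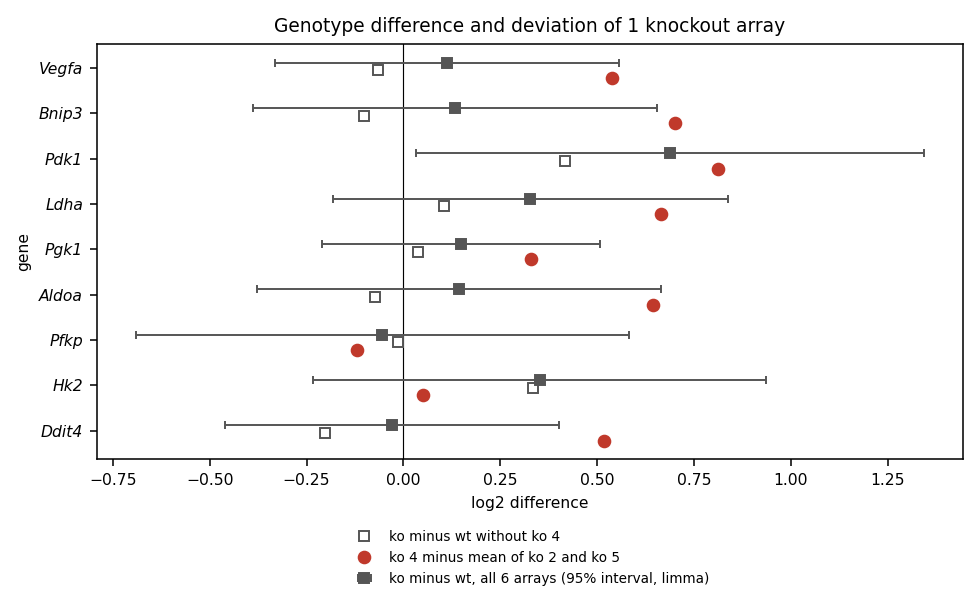
Knockout minus wild-type difference of each measured gene with its 95% interval, (filled squares), the same difference without knockout replicate 4 (open squares), and the deviation of that array from the mean of the other 2 knockout arrays (red circles), all in log2 units. Every interval but that of Pdk1 crosses 0, and the deviation is larger in size than the difference for 8 of the 9 genes.

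The members varied more between arrays than most genes. Their median pooled SD within genotypes was 0.30, against 0.14 over all genes, and it ran from 0.20 to 0.38 among the members. It was larger than the genotype difference in 6 of 9 members and in 5981 of all 10630 genes. The median share of a gene's sum of squares that lay between genotypes was 7.76% for the members and 22.6% over all genes. Pdk1 had the largest share, 54.7%, and Ddit4 the smallest, 0.569%.

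Knockout replicate 4 was the array on which most members departed from their genotype. Vegfa, Bnip3, Pdk1, Ldha, Aldoa and Ddit4 (6 of 9) were at least 0.5 above their replicates there, against 1.97% of all genes. The median deviation was 0.54 for the members and 0.04 over all genes. Bnip3, Pdk1, Ldha and Aldoa exceeded the 99th percentile of all genes, 0.59, and Vegfa and Ddit4 lay between it and the 95th percentile, 0.37. It was the highest array for 7 of 9 members, against 21.9% of all genes, the exceptions being Pfkp and Hk2. No member was at least 0.5 below its replicates there, against 1.01% of all genes. The deviation was larger in size than the genotype difference in 8 of 9 members, all but Hk2, against 46.0% of all genes. A single array has no replicate, so these deviations carry no test.

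The other 5 arrays held few such departures. Wild-type replicate 1 was the lowest array for Pdk1, Ldha, Pgk1, Aldoa and Hk2 (5 of 9), against 27.0% of all genes. Hk2 was at least 0.5 below its replicates there, against 3.37% of all genes, and Pfkp at least 0.5 above them, against 8.53%. On knockout replicate 2 no member was 0.5 above (1.83% of all genes) or below (1.95%). On knockout replicate 5 none was above (0.884%) and Pdk1 was below (1.48%). Wild-type replicate 4 had none above (1.94%) or below (3.98%). On wild-type replicate 5 none was above (1.5%), and Pfkp was below (2.64%). With each member centred on its own mean over the 6 arrays, the average of the members was -0.04, 0.41 and -0.07 on knockout replicates 2, 4 and 5, against -0.20, -0.06 and -0.04 on wild-type replicates 1, 4 and 5.

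**Figure D3:**
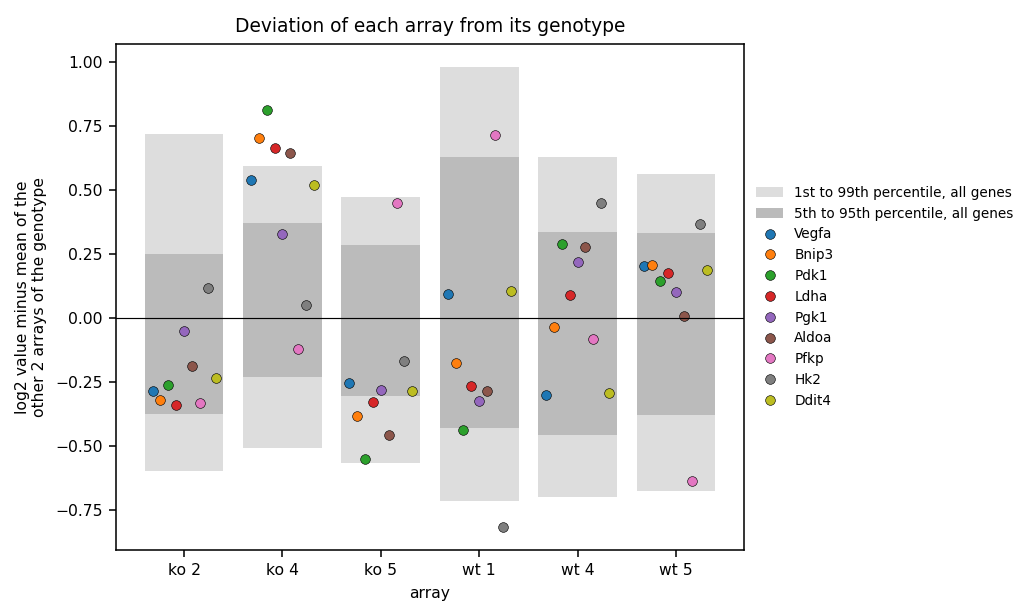
Deviation of each array from the mean of the other 2 arrays of its genotype (log2 units) for the 9 measured genes (points), by array, over grey bands that span the 5th to 95th (dark) and 1st to 99th (light) percentile of all genes. Knockout replicate 4 holds 6 genes above 0.5, 4 of them above the light band, and no other array holds more than 1 gene above 0.5.

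The other genes of glycolysis came next. Of 23 further glycolytic genes listed, 13 were measured, and 0 passed the genotype test. In the knockout 7 were higher and 6 lower, where 49.3% of all genes were higher, with a median difference of 0.02. The genes of lowest p were Hk1, the hexokinase of most brain cells (-0.29), Pfkm (0.12), Tpi1 (0.26) and Ldhb (-0.13). In this list 3 genes were at least 0.5 above their replicates on knockout replicate 4, against 1.97% of all genes. The median deviation over the list was 0.23, against 0.04 over all genes. Tpi1, triose phosphate isomerase, read 10.38, 10.96 and 10.30 in knockout replicates 2, 4 and 5, against 10.11, 10.36 and 10.40 in wild-type replicates 1, 4 and 5. Eno2, the neuronal enolase, deviated by 0.83, but its highest array was wild-type replicate 1, at 6.67 against 6.55 on knockout replicate 4. Pfkl deviated by 0.58 and Pgam1 by 0.39. Pkm, pyruvate kinase, was outside the genes named by the rule and read 10.71, 10.94 and 10.61 in the knockout, against 10.85, 10.75 and 10.82 in the wild type.

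Genes of glucose and lactate transport and of pyruvate entry into mitochondria gave 12 measured of 16 listed, with 0 passing. Of the 12, 8 were higher and 4 lower, where 49.3% of all genes were higher, with a median difference of 0.07. None deviated by 0.5 on knockout replicate 4. Slc2a1, the glucose transporter of vessels and neural cells, came nearest with 0.48, reading 9.72, 10.21 and 9.72 in knockout replicates 2, 4 and 5, against 9.53, 9.80 and 9.82 in wild-type replicates 1, 4 and 5. Bsg, the chaperone of lactate transporters, deviated by 0.44 and differed by 0.34 between genotypes. Slc16a1, a lactate transporter, differed by 0.39, and Slc2a3, the neuronal glucose transporter, by -0.34. Slc2a3 was the only one of the 12 without overlap between the groups, near the share of all genes lower in this way (7.96%). None of these passed.

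In the oxygen-sensing machinery the median deviation on knockout replicate 4 was 0.05 over all 12 listed genes, against 0.04 over all genes. Hif1a, the oxygen-regulated subunit, read 10.91, 10.93 and 10.95 in knockout replicates 2, 4 and 5, against 10.93, 10.90 and 11.07 in wild-type replicates 1, 4 and 5. Its RNA was thus level on all 6 arrays; the protein, which oxygen controls, was not measured. Hif3a was the only gene of the list with a deviation of at least 0.5, 0.59, where 1.97% of all genes were that far above. Between genotypes 0 passed, 2 were higher and 10 lower in the knockout, where 49.3% of all genes were higher, with a median difference of -0.12. Cited2, which competes with HIF for its coactivators, read 9.42, 9.39 and 9.36 in knockout replicates 2, 4 and 5, against 10.001, 9.75 and 9.61 in wild-type replicates 1, 4 and 5, a difference of -0.39 without overlap. Egln1 (-0.31), Arnt2 (-0.35) and Vhl (0.20) were also without overlap between the groups and did not pass. The list thus held 3 lower and 1 higher gene without overlap of 12, where 7.96% of all genes were lower and 8.45% higher in this way.

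Other known hypoxia targets gave 14 measured of 28 listed, with 0 passing, 10 higher and 4 lower and a median difference of 0.11. Over all genes 49.3% were higher. Of the 14 targets, 7 were highest on knockout replicate 4 (21.9% of all genes) and 7 lowest on wild-type replicate 1 (27.0% of all genes). Their median deviation on knockout replicate 4 was 0.18. Ankrd37 alone was at least 0.5 above its replicates there, where 1.97% of all genes were. It read 5.64, 6.24 and 5.66 in knockout replicates 2, 4 and 5, against 5.62, 5.66 and 5.69 in wild-type replicates 1, 4 and 5. P4ha1, a collagen prolyl hydroxylase subunit, differed by 0.36 between genotypes without overlap, reading 4.66, 5.10 and 4.81 in the knockout against 4.37, 4.65 and 4.48 in the wild type. Mxi1, an antagonist of Myc, lay the other way without overlap, with a difference of -0.20. These were the only genes of the 14 without overlap, 1 in each direction, near the shares of all genes (8.45% higher and 7.96% lower). Narf differed by 0.63, with its lowest value, 5.95, on wild-type replicate 1. Genes of the integrated stress response and partners of Ddit4 gave 15 measured of 17, 0 passing, 8 higher and 7 lower, and none past 0.5 on knockout replicate 4. Tsc2, part of the complex through which Ddit4 inhibits mTOR, differed by -0.48, and Ddit4l, a relative of Ddit4, by -0.26. Sesn1, a sestrin that also restrains mTOR, differed by 0.31. These were the only genes of the 15 without overlap (2 lower and 1 higher, where 7.96% and 8.45% of all genes were), and none passed. Of 28 genes of mitochondrial respiration 25 were measured, 14 higher and 11 lower, with a median deviation of 0.06 on knockout replicate 4.

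**Figure D4:**
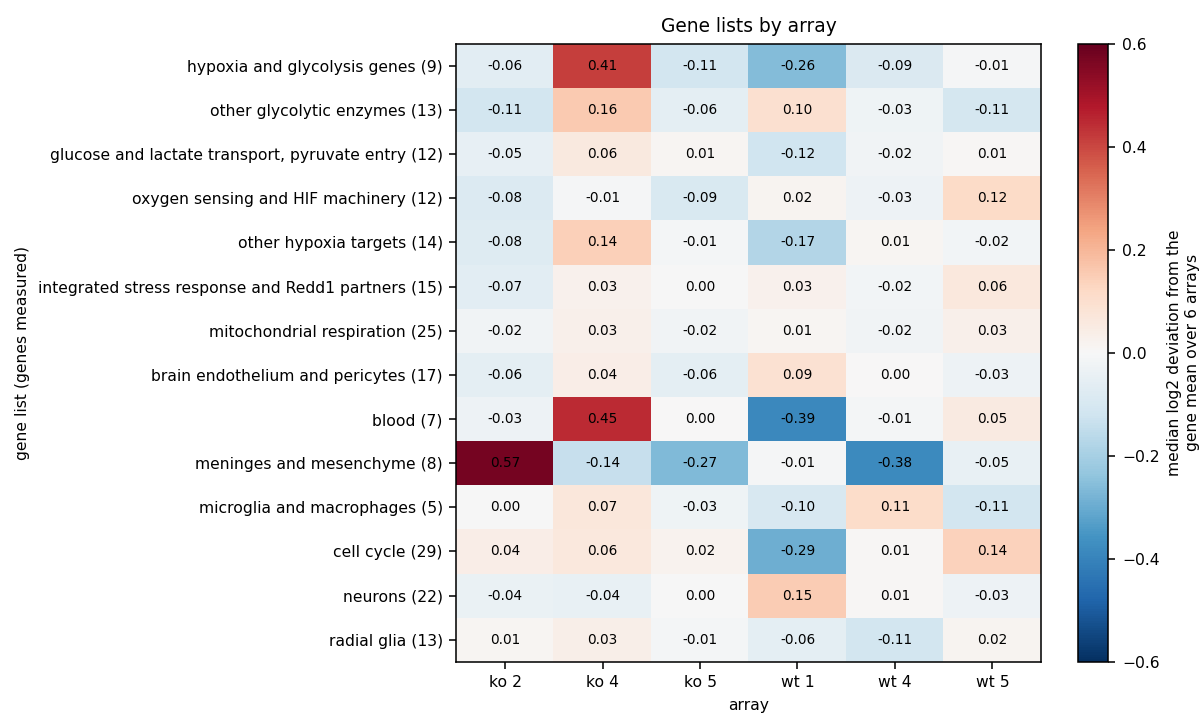
Median over each gene list (rows, measured genes in brackets) of the log2 value centred on the gene's mean over 6 arrays, for each array (columns, knockout replicates left of wild-type replicates). The hypoxia and glycolysis genes and the blood genes share their highest array, knockout replicate 4 (0.41 and 0.45), and their lowest, wild-type replicate 1 (-0.26 and -0.39). The other hypoxia targets (0.14 and -0.17) and the glucose and lactate transport genes (0.06 and -0.12) have the same highest and lowest arrays, with smaller values.

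Markers of other cells were set beside the members. Of 16 blood genes 7 were measured, and their centred median was 0.45 on knockout replicate 4 and -0.39 on wild-type replicate 1, the arrays on which the members were highest and lowest. Hbb-bh1, an embryonic globin, read 8.19, 9.41 and 9.05 in knockout replicates 2, 4 and 5, against 7.95, 8.14 and 9.48 in wild-type replicates 1, 4 and 5. It was as high on wild-type replicate 5 as on knockout replicate 4, and the members' average on wild-type replicate 5 was -0.04. Hba-x gave 9.75, 10.41 and 9.91 in the knockout against 9.28, 10.02 and 10.41 in the wild type, the same pattern. Slc4a1 instead was highest on knockout replicate 4 (5.91) and lowest on wild-type replicate 1 (4.81). Hba-a2 read 5.63, 5.71 and 5.00 in the knockout against 4.61, 4.10 and 4.92 in the wild type. It was 0.90 higher without overlap, as were 8.45% of all genes, and did not pass. Of the 7 blood genes, 3 were highest on knockout replicate 4 (21.9% of all genes). All 7 had the higher mean in the knockout (49.3% of all genes). The embryonic globin Hbb-y ran from 13.94 to 14.11, near the highest value of the table, 14.7, where differences can be compressed. Summed on a linear scale, the blood genes came to 17707 to 19260 in the knockout and 16710 to 19589 in the wild type, a sum that Hbb-y dominates and that says little about the other blood genes. The part of blood in the members' values was not tested.

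Genes of endothelium and pericytes summed to 880 to 953 in the knockout, with 953 on knockout replicate 4, and to 741 to 1035 in the wild type (17 of 22 measured). Rgs5 and Pdgfrb weigh most in this sum (8.33 and 7.19 on knockout replicate 4). The Vegfa receptors Kdr and Flt1 add little (4.44 and 3.92 there). Of the 17, 5 were higher in the knockout and 12 lower. Pdgfrb, the lowest p of the list, was 0.41 higher and Pecam1 0.39 higher. Only these 2 lacked overlap, where 8.45% of all genes were higher in this way, and neither passed. The defining markers Cdh5 and Tie1 missed the filter. Meningeal genes were highest on knockout replicate 2 and summed to 580 on knockout replicate 4, within the wild-type range of 528 to 707. Microglia and macrophage genes summed to 113 to 121 in the knockout and 92 to 122 in the wild type. Cell cycle genes had a centred median of 0.06 on knockout replicate 4 and -0.29 on wild-type replicate 1. On the latter 21 of 29 were lowest, against 27.0% of all genes. Neuronal genes had 0.15 on wild-type replicate 1. Their part in the low values of Hk2 and the other members on that array was not tested. The members' own sum was 3685 to 5308 in the knockout, with 5308 on knockout replicate 4, and 3395 to 3990 in the wild type.

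Among 1343 other named genes with an SD of at least 0.3 over the 6 arrays, 9 had a Pearson r above 0.9 with the members' average profile. The points share the same 6 arrays, and knockout replicate 4 dominates the profile, so r is a description only. The 8 highest were Ctla2a (0.97), Eif4ebp1 (0.96), Acot8 (0.96), Adap1 (0.94), Ak4 (0.94), Rrp7a (0.93), Ppm1h (0.91) and Sema4b (0.90). Eif4ebp1, a translation repressor that mTOR inactivates, read 4.56, 5.30 and 4.52 in knockout replicates 2, 4 and 5, against 4.52, 4.51 and 4.59 in wild-type replicates 1, 4 and 5. Ak4, a mitochondrial adenylate kinase, read 5.36, 5.99 and 5.45 in the knockout, against 4.94, 5.45 and 5.38 in the wild type. The 4 lowest were Fbxl7 (-0.88), Lrrtm3 (-0.90), Dscam (-0.91) and Cacna1c, a calcium channel subunit (-0.997). Fbxl7 read 5.89, 3.60 and 5.04 in knockout replicates 2, 4 and 5, against 5.83, 6.13 and 5.86 in wild-type replicates 1, 4 and 5.

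For the series as a whole, Olig2 read 7.48, 7.53 and 7.76 in knockout replicates 2, 4 and 5, against 8.20, 8.22 and 8.42 in wild-type replicates 1, 4 and 5, a difference of -0.69 (limma, adjusted p = 0.511). Where its probes lie relative to the deleted part is unknown here, and Olig1, its neighbour, was 1.69 higher in the knockout (adjusted p = 0.511). The ventral forebrain genes Dlx1, Dlx2 and Gad1 were well above the array medians on all arrays (Dlx1 11.03 to 11.47), which were 3.14 to 3.19. Nkx2-1, another ventral forebrain gene, missed the filter. It read 2.72, 2.95 and 2.72 in knockout replicates 2, 4 and 5, against 2.72, 3.36 and 2.69 in wild-type replicates 1, 4 and 5. The 18S ribosomal control averaged 6.48 ± 1.03 in the knockout against 5.55 ± 0.77 in the wild type (SD, n = 3 each, two-sided exact permutation p = 0.3). Its highest array was knockout replicate 2, at 7.57, and its lowest wild-type replicate 1, at 4.87, with 6.34 on knockout replicate 4. The Gapdh 3' minus 5' control value was -0.61 ± 0.04 in the knockout against -0.48 ± 0.06 in the wild type (exact permutation p = 0.1, the smallest that 3 against 3 can give). The Actb 3' minus 5' value lay the other way, 0.82 ± 0.12 in the knockout against 0.77 ± 0.07 in the wild type (exact permutation p = 0.6). It was highest on knockout replicate 4, at 0.90. The mean of the Gapdh control probe sets, a glycolytic gene too, was 12.71, 12.90 and 12.68 in knockout replicates 2, 4 and 5, against 12.65, 12.73 and 12.75 in wild-type replicates 1, 4 and 5. Nothing in the labels says that replicates came from separate litters, so p-values measure only the spread between these pooled arrays, and the small number of arrays limits precision.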

How the data were processed

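The deposited values are log2 expression, 1 value a probe set and array. Per the series design text and the submitters' processing notes (GCOS, MAS5 and GCRMA, with no versions stated), the authors quantile-normalized the probe signals and summarised them with GCRMA. Quantile normalization hides a change in total RNA per cell, and GCRMA compresses differences near its floor, where 33.2% to 33.7% of each array's values lie within 0.03 of it. Of 45101 rows, 64 were controls. Of the other 45037, 34945 had 1 gene symbol in the platform annotation, 932 several and 9160 none; 34741 matched a RefSeq gene ID, which updated 0 symbols.

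Probe sets that exceeded the array's median of non-control probe sets on 3 or more of the 6 arrays were kept (22565), and the kept one with the highest mean stands for its gene. Genotypes were compared with limma 3.58.1 in R 4.3.3 (lmFit, eBayes, two-sided, Benjamini-Hochberg over all kept probe sets, threshold 0.05), without a block. An array's deviation is its value minus the mean of the other 2 arrays of its genotype, with no test. RNA quality values had exact permutation tests. The fit was tested on simulated data.

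The members and gene lists were chosen with earlier results of these data known. The rule named all members, per list up to 4 genes of lowest p and up to 4 with the largest deviation on knockout replicate 4, the 8 genes most like and 4 least like the members' profile, and Olig2 and Olig1 as a label check. Alternatives were other filters and normalizations, variance settings, array weights, the replicate number as a block, averaging the probe sets of a gene, and each array left out.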

Additional observations from a re-analysis of the deposited data

How the results depend on the processing

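No probe set passed the genotype test under the 14 alternatives run for it (limma, adjusted p), and the count at an unadjusted p under 0.05 was 2121 as reported, 3491 with array weights, 1205, 1121 and 1402 without knockout replicate 4, knockout replicate 5 and wild-type replicate 1, 3490 without wild-type replicate 4, and 1100 without knockout replicate 4 and wild-type replicate 1 together, an alternative chosen after seeing the data. The 6 members past 0.5 on knockout replicate 4 became 5 when the probe sets of a gene were averaged. Of 135 member values under alternatives, 118 kept their direction and 17 reversed, and none passed (limma, adjusted p 0.334 to 1.0). The 118 include values that could not move. Other filters and variance settings leave a difference unchanged, as does averaging for genes with 1 kept probe set. The count is therefore no measure of robustness. Without both arrays Vegfa was -0.03, Bnip3 -0.16, Pgk1 -0.069, Aldoa -0.17 and Pfkp 0.22. Array weights gave Pfkp 0.25. With arrays left out in turn, differences ran from -0.066 to 0.21 for Vegfa, -0.10 to 0.26 for Bnip3, 0.42 to 0.87 for Pdk1, 0.11 to 0.44 for Ldha, 0.04 to 0.24 for Pgk1, -0.07 to 0.29 for Aldoa, -0.27 to 0.18 for Pfkp, 0.08 to 0.50 for Hk2 and -0.20 to 0.064 for Ddit4. The cause of these reversals was not tested.

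With the replicate number as a block, Pfkp was 0.29 and Ddit4 0.083, both reversed, Hk2 was 0.04, Pgk1 0.06 and Vegfa 0.24, each moved by more than 1.5 times, 2014 probe sets were under 0.05 unadjusted and 0 passed. The labels do not say whether equal numbers pair the arrays. Only 4 and 5 are shared, with correlations of the deviations of -0.29 and 0.32. Pairs of unequal number ran from -0.36 (knockout 2 with wild-type 5) to 0.38 (knockout 2 with wild-type 4), so the correlations cannot decide on pairing.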

Other observations

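Some hypoxia genes that missed the filter also read highest on knockout replicate 4; they were chosen after their values were seen. Slc16a3, a lactate exporter, read 3.68 there and 2.40 on each of the other 5 arrays. Hmox1, heme oxygenase, read 3.82 there and 2.75 to 3.19 on the others. Plod1, a lysyl hydroxylase, read 3.45 and 2.81 to 2.97, and Adm, the peptide adrenomedullin, 2.76 and 2.32 to 2.51. Of the 9 other hypoxia targets that missed the filter, 4 were highest on knockout replicate 4 by more than 0.05, against 317 of 7563 genes with no kept probe set (4.19%). Another of the 9, P4ha2, was lowest on that array, at 2.66. In the other lists this held for 1 of 4 further glycolytic genes, 1 of 3 transport genes and 0 of 2 stress response genes that missed the filter. Such values lie near the lowest of the table, 2.27, and the counts are no test. A gene that stays at this floor on every array cannot be highest by more than 0.05. The 4.19% includes any such genes and was not matched in level to the listed genes.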
